A study of Danio rerio with 6 samples.

Results

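The level of 6 genes of epithelial cells was followed in cells of zebrafish (Danio rerio) larvae that had been sorted for the reporter sox10:dsRed. They are the keratin genes krt4 (ENSDARG00000017624), krt5 (ENSDARG00000058371) and krt8 (ENSDARG00000058358), the adhesion genes cdh1 (ENSDARG00000102750) and epcam (ENSDARG00000040534), and the transcription factor gene tp63 (ENSDARG00000044356). They were picked by identifier as a readout of skin and other epithelium in the sorted cells, and all 6 were found among the 27726 genes of the deposited table. All 6 also passed the filter on low values that left 20463 genes for testing. The 2 groups were 3 wild-type libraries and 3 libraries from Shoc2-/- larvae, a mutant made with CRISPR/Cas9 that the titles call D22. Every library came from larvae at 6 days post fertilization that carried the sox10:dsRed reporter, in which a red fluorescent protein marks cells with sox10 activity. Shoc2 is a scaffold protein of RAS-ERK signalling, and the design asked which transcripts differ when it is lost. The number of larvae and clutches behind a library is not given in the sources used here, so p-values measure the spread between these libraries, which may be technical.

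Keratins are the intermediate filament proteins of epithelia, built as pairs of a type I and a type II chain. In the fish larva the skin has an outer layer, the periderm, over a layer of basal keratinocytes that sits on the basement membrane. The transcription factor p63, encoded by tp63, is required for the basal layer, E-cadherin (cdh1) holds epithelial cells together at adherens junctions, and EpCAM is a membrane glycoprotein of epithelial cells. sox10 is best known as a transcription factor of the neural crest, the glia and the pigment cell lineages, which are not keratinizing epithelia.

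Reads counted in the listed genes, summed per library, ran from 20088591 to 21802683. The numbers of sequenced and mapped reads are not given in the sources used here. By the counted total, both genotypes fell into 2 classes, called depth classes below. At least 21575563 reads were found in wild-type replicate 1, mutant replicate 1 and mutant replicate 3, and at most 20152291 in wild-type replicates 2 and 3 and mutant replicate 2. The transcript of shoc2 was still read in mutants, at 844, 798 and 673 normalized counts against 1194, 959 and 1083 in wild type. The groups did not overlap, but the log2 fold change of -0.48 (SE 0.15) did not pass adjustment in limma (adjusted p = 0.636, unadjusted p = 0.00967). Gene-level counts do not read the edited site, so they are a limited check of the labels. sox10 itself was high in every library, from 8573 normalized counts in wild-type replicate 2 to 30211 in mutant replicate 2.

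The 6 epithelial genes did not separate the genotypes. In limma with Benjamini-Hochberg adjustment over all tested genes, 0 of 6 had an adjusted p under 0.05, where 0.00489% of all tested genes did. At an unadjusted p under 0.05 there was 1 of 6, krt5, beside 5.8% of all genes. Count tests on 5 libraries, without wild-type replicate 3, also called 0 of 6 at an adjusted p under 0.05. Over all genes edgeR called 1 (0.00489%) and DESeq2 called 60 (0.293%), of which 39 were lower in mutants. edgeR had 1 of 6 (krt5) and DESeq2 0 of 6 at an unadjusted p under 0.05, beside 4.75% and 5.02% of all genes. The mutant and wild-type values overlapped in 6 of 6, whereas 10.6% of all tested genes had no overlap. What stood out was the spread between libraries of the same genotype, which differed greatly from gene to gene, from krt8 with nearly level values to krt4, krt5 and tp63 with ranges of more than 3-fold in wild type alone. Because these are bulk samples, fewer epithelial cells in a sort and less of a transcript per cell cannot be told apart.

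krt4, a type II keratin gene that is strongly expressed in the outer layer of the larval skin, had 19296, 68188 and 62524 normalized counts in wild-type replicates 1 to 3. In mutant replicates 1 to 3 it had 21878, 31829 and 17840. Wild-type replicates 2 and 3 were high, and wild-type replicate 1 lay among the mutants. The genotype means were 50003 ± 26743 and 23849 ± 7200 (SD, n = 3 each). The log2 fold change of mutants over wild type was -0.91 (SE 0.44, 95% interval -1.90 to 0.09, limma adjusted p = 0.893). Without wild-type replicate 1 the log2 fold change was -1.50 (adjusted p = 0.286), and without wild-type replicate 2 it was -0.58.

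krt5, a type II keratin gene of the epidermis, had 15972, 56826 and 29291 normalized counts in wild type and 13567, 20036 and 11554 in mutants. Wild-type replicate 2 was the highest library by a wide margin, and mutant replicate 2 exceeded wild-type replicate 1. Wild type averaged 34030 ± 20835 and mutants 15052 ± 4431 (SD, n = 3 each). The log2 fold change of -1.03 (SE 0.40, 95% interval -1.94 to -0.12) had an unadjusted p of 0.0309 and an adjusted p of 0.787 in limma. Without wild-type replicate 2 it was -0.56, and without wild-type replicate 1 it was -1.48.

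krt8, the type II keratin gene of simple epithelia, behaved differently. It had 58701, 56737 and 49645 normalized counts in wild type and 50512, 50174 and 65582 in mutants. The highest library was only 1.32 times the lowest, against 3.82 times for krt4 and 4.92 times for krt5. Its log2 fold change was 0.00 (SE 0.15, 95% interval -0.34 to 0.34, limma adjusted p = 1), with no stable sign among the alternative scalings. The standard deviation of log2 values within genotypes was 0.18 for krt8, at the 26.1 percentile of all tested genes. It was 0.78 for krt4 and 0.71 for krt5, at the 91.6 and 89.3 percentiles.

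tp63, the regulator of the basal layer, had the lowest counts of the 6. Its values were 350.0, 1127 and 533 normalized counts in wild type and 350.0, 663 and 399 in mutants. Wild-type replicate 2 was highest, as it was for krt5, and the lowest wild-type and mutant libraries were level. The log2 fold change was -0.39 (SE 0.40, 95% interval -1.30 to 0.52, limma adjusted p = 0.964), and without wild-type replicate 2 it was 0.07.

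**Figure D1:**
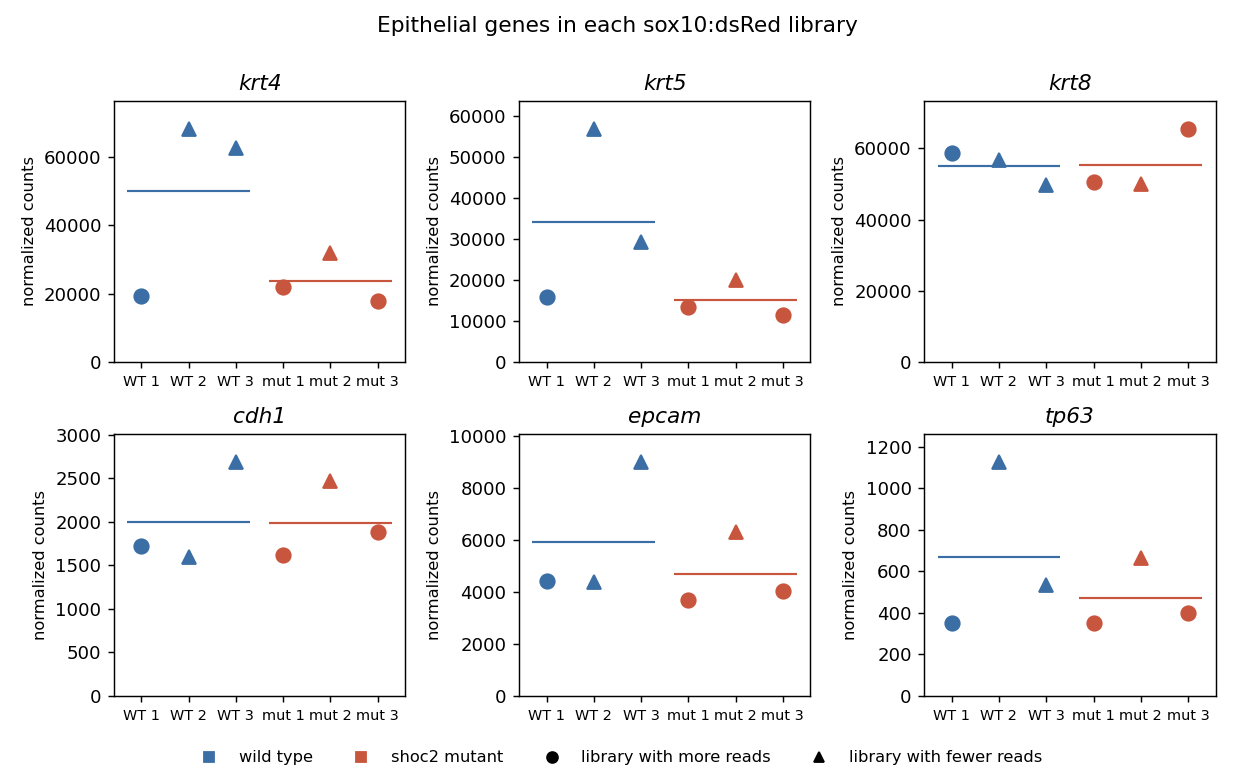
Normalized counts of each of the 6 genes (vertical axes, linear, from 0) in the 6 libraries (horizontal axes; WT, wild type; mut, shoc2 mutant), with a line at each genotype mean and the marker shape giving the depth class. krt4, krt5 and tp63 are highest in the 3 libraries with fewer reads, krt8 is nearly level, and cdh1 and epcam are high in wild-type replicate 3 and mutant replicate 2.

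The adhesion genes were highest in another pair of libraries. cdh1 had 1717, 1591 and 2686 normalized counts in wild type and 1622, 2463 and 1888 in mutants. Wild-type replicate 3 and mutant replicate 2 were high, and wild-type replicate 2, the highest library for krt4, krt5 and tp63, was the lowest of all. The means of 1998 ± 599 and 1991 ± 429 (SD, n = 3 each) gave a log2 fold change of 0.01 (SE 0.22, 95% interval -0.49 to 0.52, limma adjusted p = 0.999).

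epcam had 4402, 4363 and 8988 normalized counts in wild type and 3681, 6311 and 4020 in mutants. The same pair of libraries, wild-type replicate 3 and mutant replicate 2, was high, and the other 4 lay between 3681 and 4402. The log2 fold change was -0.30 (SE 0.30, 95% interval -0.97 to 0.38, limma adjusted p = 0.964), and without wild-type replicate 3 it was 0.05.

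**Figure D2:**
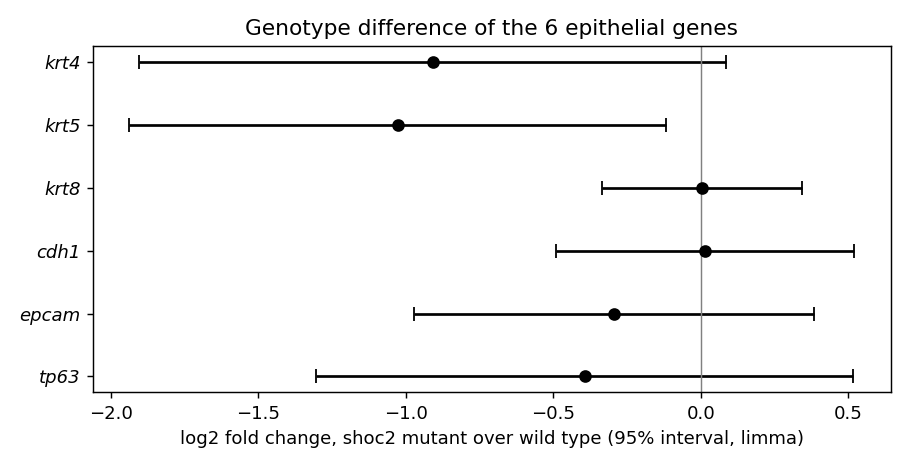
Log2 fold change of each gene, shoc2 mutant over wild type, on the log2(normalized count + 1) scale (points) with 95% intervals from limma (bars; n = 3 libraries per genotype, not adjusted for multiple tests). The intervals of 5 genes include 0; that of krt5 runs from -1.94 to -0.12.

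For the 3 keratins the reads were a visible part of each library. The 6 genes summed to 0.484, 0.891 and 0.755% of all normalized counts in wild type and 0.435, 0.539 and 0.499% in mutants. The 3 keratins made up between 91.5 and 96.3% of that sum. krt8 took from 0.240 to 0.323% of a library. krt4 took from 0.0880 to 0.322%, and krt5 from 0.0570 to 0.268%. Within the keratin reads, krt8 accounted for 62.5, 31.2 and 35.1% in wild-type replicates 1 to 3 and for 58.8, 49.2 and 69.1% in mutant replicates 1 to 3. The composition of wild-type replicate 1 was thus inside the mutant range, and the remaining wild-type libraries were outside it. These are shares of reads and are not corrected for transcript length. krt4, krt5 and krt8 are related genes, krt5 and krt8 are neighbours with 0 genes between them in the RefSeq gene table, and that table lists krt8 as an older name of krt4. How reads shared by such genes were counted is not given in the sources used here, so the split among the 3 is uncertain.

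**Figure D3:**
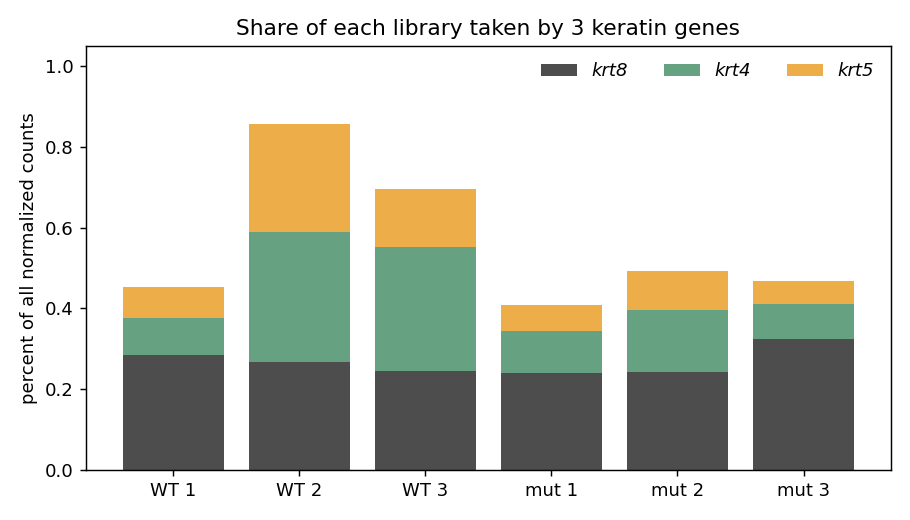
Percent of all normalized counts taken by krt8, krt4 and krt5 (stacked bars from 0) in each library. The krt8 part stays between 0.240 and 0.323%, while the krt4 and krt5 parts are largest in wild-type replicates 2 and 3.

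Ratios between genes within a library do not depend on how libraries are scaled, and they are given as descriptions. The log2 ratio of krt4 to krt8 was -1.61, 0.27 and 0.33 in wild type and -1.21, -0.66 and -1.88 in mutants. That of krt5 to krt8 was -1.88, 0.00 and -0.76 in wild type and -1.90, -1.32 and -2.51 in mutants. Both overlapped between genotypes through wild-type replicate 1. The log2 ratio of krt4 to krt5 was even in mutants, at 0.69, 0.67 and 0.63, and ranged from 0.26 to 1.09 in wild type.

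Among these 5 ratios, 2 had no overlap between genotypes. Another 2 ratios, krt4 to epcam and krt8 to epcam, were added after the data were seen and overlapped, which makes 2 of 7. The log2 ratio of tp63 to krt5 was -5.51, -5.65 and -5.78 in wild type and -5.27, -4.92 and -4.85 in mutants, so that mutants held more tp63 reads per krt5 read in 3 of 3 libraries. The means differed by 0.63, with SDs of 0.14 in wild type and 0.23 in mutants (n = 3 each). The log2 ratio of cdh1 to epcam was -1.36, -1.46 and -1.74 in wild type and -1.18, -1.36 and -1.09 in mutants. The highest wild-type value (-1.358) and the lowest mutant value (-1.357) were almost equal, so this separation is slight. No background over other pairs of genes was computed for these ratios.

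**Figure D4:**
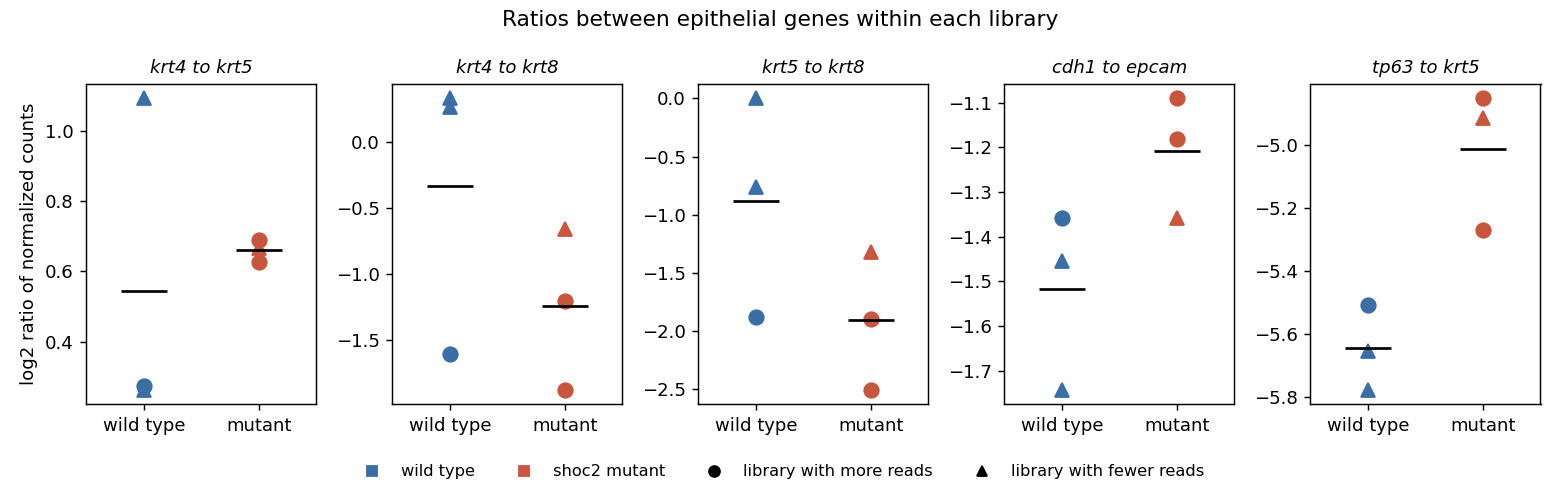
Log2 ratio of normalized counts for 5 pairs of genes (one panel each, with its own vertical axis) by genotype, with 1 point per library, a line at the mean and the marker shape giving the depth class. The tp63 to krt5 ratio lies between -5.78 and -5.51 in wild type and between -5.27 and -4.85 in mutants.

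The genes were then compared with each other over the 6 libraries, as 15 pairs. krt4 and krt5 had a Pearson r of 0.934 (exact permutation p = 0.00417, Benjamini-Hochberg 0.0625 over 15 pairs) and a Spearman rho of 0.943 (exact permutation p = 0.0167, adjusted 0.25). Without wild-type replicates 2 and 3, the libraries farthest from the median of krt4, r was 0.851. krt5 and tp63 had an r of 0.899 (exact permutation p = 0.0208, adjusted 0.104) and a rho of 0.771 (p = 0.103, adjusted 0.51), and r was 0.712 without the same 2 libraries. krt4 and tp63 had an r of 0.816 (exact permutation p = 0.0444, adjusted 0.167) and a rho of 0.714 (p = 0.136, adjusted 0.51), with 0.873 after those 2 libraries were left out. These 3 genes were high and low in much the same libraries, although 0 of the 15 pairs had an adjusted p under 0.05. The values without wild-type replicates 2 and 3 kept mutant replicate 2, the highest remaining library for all 3 genes. They therefore do not leave out every shared high library, unlike the values given next for cdh1 with epcam.

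cdh1 and epcam formed the other close pair, with an r of 0.923 (exact permutation p = 0.0208, adjusted 0.104) and a rho of 0.714 (p = 0.136, adjusted 0.51). This relation rested on wild-type replicate 3 and mutant replicate 2, since r was -0.02 without them. The r of deviations from the genotype means was 0.987 for cdh1 with epcam, 0.965 for krt5 with tp63 and 0.901 for krt4 with krt5, so these relations were also present within genotypes. For cdh1 with epcam this value adds no support beyond wild-type replicate 3 and mutant replicate 2, each the highest library of its genotype for both genes. For krt4, krt5 and tp63 the highest libraries of each genotype were shared as well, wild-type replicate 2 and mutant replicate 2. Their values within genotypes are thus not separate support either. krt8 had a negative r with each of the other 5 genes, from -0.155 with tp63 to -0.562 with epcam, of which the smallest exact permutation p was 0.271 (adjusted 0.633). Without wild-type replicate 1 and mutant replicate 3, r was 0.8 with tp63, -0.673 with cdh1 and -0.486 with epcam. Without wild-type replicates 2 and 3 it was -0.799 with krt4 and -0.657 with krt5. The sign was thus not stable for tp63.

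The depth class moved with the first of these patterns. The split by depth class was not planned. For krt4, krt5 and tp63 the 3 libraries with fewer reads all lay above the 3 with more reads, which held for 3 of the 6 genes and for 5.23% of all tested genes. Because these 3 genes moved together over the libraries, they are not 3 separate observations. Mean krt4 was 54181 normalized counts in the libraries with fewer reads and 19671 in those with more. For krt5 the means were 35384 and 13698, and for tp63 774 and 366. The class with fewer reads holds 2 of the 3 wild-type libraries and 1 mutant library, so depth class and genotype are partly confounded. Within the class with fewer reads, the mutant minus wild-type difference in log2 values was -1.04 for krt4, -1.03 for krt5 and -0.22 for tp63. Within the class with more reads it was 0.03, -0.35 and 0.09. Each class has only 1 library of one genotype, so these values have no test. With depth class as a covariate in limma, the log2 fold change was -0.50 for krt4 (adjusted p = 0.915) and -0.69 for krt5 (adjusted p = 0.848). The part of depth class, or of whatever differed between these libraries along with the counted total, was not tested.

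A broader list of genes of the surface and basal epidermis showed the same split by depth class in most, not all, of its genes. Of its 32 symbols, 28 were matched to an identifier and tested. 0 of 28 had an adjusted p under 0.05 in limma, and 5 of 28, all lower in mutants, had an unadjusted p under 0.05, where 2.91% of all genes did in that direction. The log2 difference was below 0 in 23 of 28, beside 48.5% of all genes, and the median was -0.55, beside 0.01 over all genes. Many genes of the list moved together over the libraries, so they are not 28 separate observations. Their median r with krt4 was 0.798 over 27 genes. The smallest unadjusted p-values belonged to the keratin genes krt97 (log2 fold change -0.98, SE 0.37, limma adjusted p = 0.763), krt15 (-0.53, SE 0.20, adjusted p = 0.763) and krt18b (-0.44, SE 0.18, adjusted p = 0.794). In 19 of 28 the 3 libraries with fewer reads all lay above the 3 with more reads, beside 5.23% of all tested genes. krt97 was among these genes, and krt15 and krt18b were not.

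Genes of both skin layers were among those 19. cyt1, a type I keratin gene of the outer layer, had 3851, 14807 and 13289 normalized counts in wild type and 3489, 6431 and 3042 in mutants. col17a1a, which encodes a collagen of hemidesmosomes at the base of keratinocytes, had 1478, 7526 and 3415 in wild type and 1407, 2246 and 1354 in mutants. cyt1 was high in wild-type replicates 2 and 3 alike, as krt4 was, and col17a1a was highest in wild-type replicate 2, as krt5 and tp63 were. Other genes among the 19 had other orders, so cyt1 and col17a1a do not stand for their layers. In wild-type replicates 2 and 3 and mutant replicate 2, col17a1b was nearly even (559.5, 504.4 and 541.0). In the same libraries icn had 2528, 3776 and 3294. krt18a.1, a type I keratin of the kind that pairs with krt8, was nearly as level as krt8, with 12937, 12623 and 12883 normalized counts in wild type and 13124, 14367 and 17049 in mutants. These values did not overlap, and the log2 fold change was 0.20 (SE 0.13, limma adjusted p = 0.947). krt15 also had no overlap, and was lower in mutants. Without overlap, 1 of the 28 genes was thus higher and 1 lower in mutants, beside 10.6% of all tested genes in either direction.

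Genes of epithelial junctions varied less within genotypes, with a median standard deviation of log2 values of 0.34, against 0.68 for the epidermis list and 0.28 for all tested genes. Of 23 symbols, 19 were tested, 0 had an adjusted or unadjusted p under 0.05 in limma, and the median log2 fold change was -0.22. The log2 difference was below 0 in 16 of 19, beside 48.5% of all genes. Their median r with epcam was 0.754, so they are not 19 separate observations. The smallest unadjusted p-values were those of the desmosomal gene pkp3a (log2 fold change -0.87, SE 0.42, adjusted p = 0.893), the claudin gene cldnf (-0.95, SE 0.50, adjusted p = 0.908) and perp (-0.28, SE 0.16, adjusted p = 0.939). In 9 of 19 the libraries with fewer reads all lay above the others, beside 5.23% of all tested genes. In 1 of 19 they all lay below, which held for 959 of the 20463 tested genes. The claudin genes cldnb and cldn7b instead shared their 2 highest libraries with cdh1 and epcam. cldn7b had 1540, 1020 and 2450 normalized counts in wild type and 1406, 2281 and 1400 in mutants, high in wild-type replicate 3 and mutant replicate 2 and lowest in wild-type replicate 2. The catenin genes ctnna1, ctnnb1 and ctnnd1, which many cell types use, were nearly level, with ctnnd1 between 2161 and 2382 in all 6 libraries. ctnnd1 was still the 1 gene of the 19 without overlap, lower in mutants, beside 10.6% of all tested genes in either direction. Its log2 fold change was -0.07 (SE 0.11, limma adjusted p = 0.981).

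**Figure D5:**
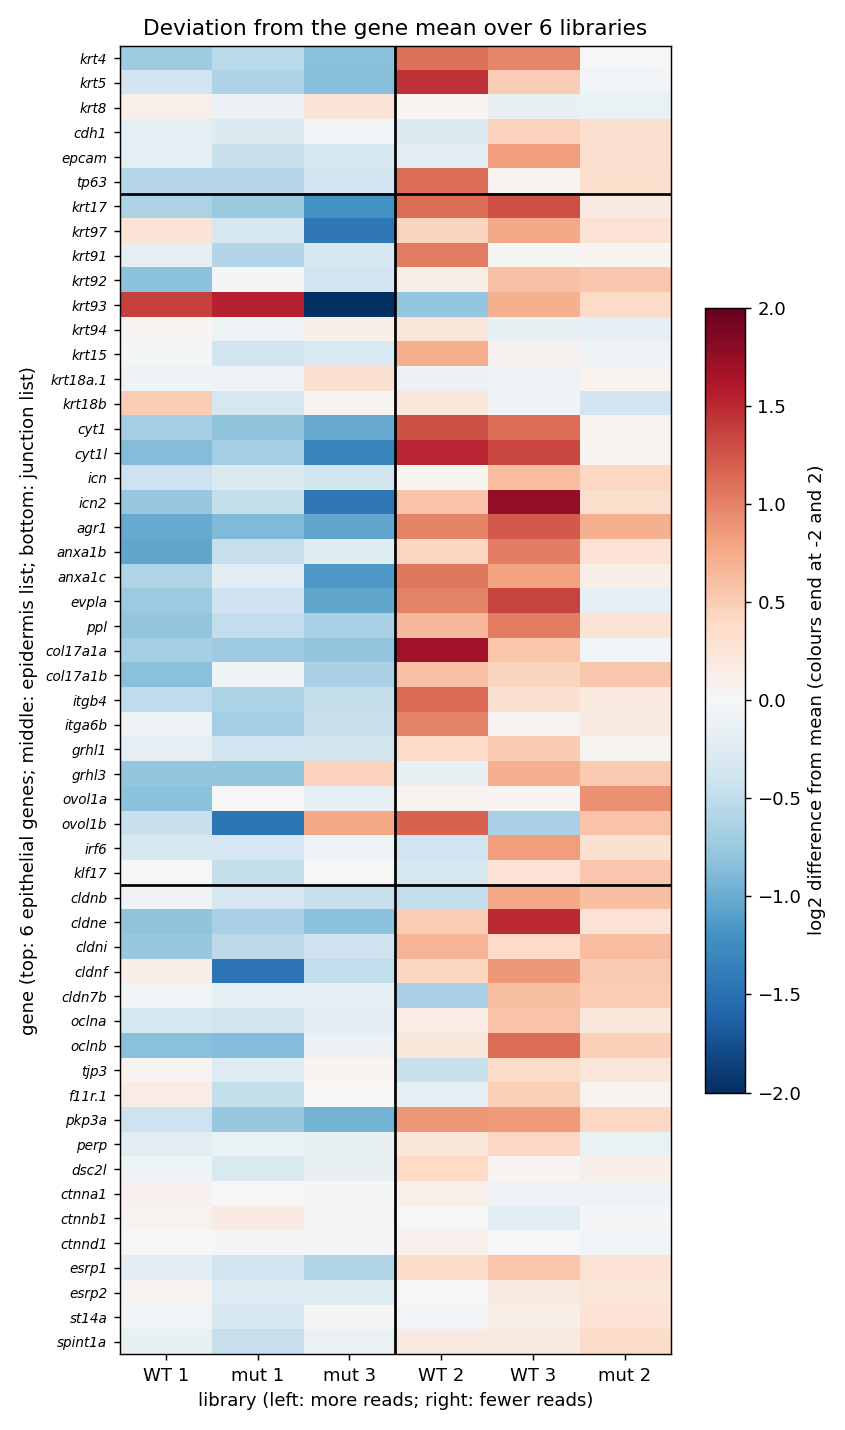
Log2(normalized count + 1) of each gene minus its mean over the 6 libraries (colour; values beyond -2 and 2 take the end colours), for the 6 epithelial genes, 28 epidermis genes and 19 junction genes (rows). Libraries are columns, with the 3 that have more reads on the left of the vertical line. All 3 columns on the right lie above all 3 on the left in 3 of 6, 19 of 28 and 9 of 19 genes of the 3 blocks. Over all tested genes this held for 5.23%.

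Transcription factors and other genes of epithelial-mesenchymal transition were examined next. Of 14 symbols, 10 were matched, to 11 identifiers, and 0 had an adjusted p under 0.05 in limma. The median log2 fold change was -0.03. In 0 of 11 did the libraries with fewer reads all lie above the others, beside 5.23% of all tested genes. In 2 of 11 they all lay below, which held for 959 of the 20463 tested genes. The 1 identifier with an unadjusted p under 0.05 was the rarer of the 2 that carry the symbol vim, with at most 22.6 normalized counts in any library (adjusted p = 0.823). snai1b (log2 fold change 0.32, SE 0.22, adjusted p = 0.954) and twist1a (-0.20, SE 0.16, adjusted p = 0.964) followed. Over 10 of the 11 identifiers the median r with krt8 was 0.704, beside -0.004 over all genes compared. With krt8 the median r was -0.487 for the epidermis list and -0.355 for the junction list. krt8 thus went more with these genes than with the epithelial lists, over values that were nearly level. The reason was not tested.

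Markers of other cell types also differed between libraries. The neural crest list (9 of 12 symbols matched) summed to between 36205 and 80716 normalized counts in wild type and between 49117 and 75043 in mutants, with its lowest sum in wild-type replicate 2, where krt4, krt5 and tp63 were highest. In that list mpz, a myelin gene, had the smallest unadjusted p (0.0266, log2 fold change 1.38, SE 0.52, adjusted p = 0.779), followed by pmela (0.44, SE 0.22, adjusted p = 0.893) and elavl3 (0.40, SE 0.20, adjusted p = 0.901). The leukocyte list (4 of 7 matched) summed to between 2033 and 4240 in wild type and between 931 and 2162 in mutants. Its gene lcp1, an actin-bundling protein of leukocytes, had 586, 738 and 1250 in wild type and 457, 914 and 568 in mutants, the same 2 highest libraries as epcam. ptprc and coro1a shared these 2 highest libraries, and cd74a did not. The 4 leukocyte genes had a median r of 0.834 with cdh1 and 0.863 with epcam. For the junction list these medians were 0.645 and 0.754. cd74a by itself had an r of 0.232 with cdh1 and 0.56 with epcam. All these values include wild-type replicate 3 and mutant replicate 2, on which the relation of cdh1 to epcam rested. The 3 libraries with fewer reads all lay above the others in 2 of the 4 leukocyte genes (ptprc and lcp1). This held in 0 of the 9 neural crest genes, in 0 of the 2 muscle genes and in 5.23% of all tested genes. The same 3 libraries all lay below in 1 of the 9 neural crest genes and in 0 of the leukocyte and muscle genes. Over all tested genes that held for 959 of 20463. cd74a had 1079, 545.8 and 1627 in wild type and 57.05, 124.2 and 24.23 in mutants, without overlap. Its log2 fold change was -4.12 (SE 0.57, limma unadjusted p = 4.85e-05, adjusted p = 0.124), which did not pass the threshold. The sums of the leukocyte list include this difference, whereas ptprc, coro1a and lcp1 overlapped between genotypes. coro1a (log2 fold change -0.43, SE 0.37) was also below wild type on average without passing the threshold. The 2 matched muscle genes, myhz2 (1.83, SE 0.90, adjusted p = 0.903) and ckma (1.35, SE 0.80, adjusted p = 0.939), summed to between 1197 and 10372 in wild type and between 3086 and 21784 in mutants. No matched marker in these 3 lists was at 0 in any library, and their part in the epithelial values was not tested.

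Genes with the most similar pattern were looked up among 16692 other genes whose mean reached 50 normalized counts. By the mean Pearson r with all 6 genes, the highest were rac2 (0.58), MFSD3 (0.58), dnajb6b (0.57) and si:ch211-125o16.4 (0.57). ENSDARG00000096331 followed (0.57). The search was also repeated for each gene, a choice made after the values were seen. For krt4 the 5 highest were cyt1l (r = 0.996), lpcat4 (0.995), cyt1 (0.993), the desmosomal cadherin gene dsg2.1 (0.988) and muc13a (0.985). For krt5 they were ube2nb (0.998), the keratin gene krt1-19e (0.994), MFN2 (0.991), col17a1a (0.991) and ITGAV (0.986).

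For cdh1 the closest was foxi3b (r = 0.996), which encodes a transcription factor of zebrafish skin ionocytes. foxi3b had 59.6, 48.6 and 202 normalized counts in wild type and 55.1, 183 and 75.5 in mutants, the library order of cdh1. s100a11 (0.994), si:dkey-33m11.8 (0.992), the claudin gene cldn3c (0.989) and arrdc1a (0.987) followed. For epcam the closest was IGFBP5 (0.999), for tp63 si:ch211-166a6.5 (0.997) and for krt8 SCN3B (0.998). Of the 16692 genes, between 21 (cdh1) and 55 (krt4) reached an r of at least 0.95 with a given gene. No chance level was computed for these counts. With so few libraries and so many genes, unrelated genes can also reach such values, so the genes named here are descriptions only.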

How the data were processed

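The members and gene lists were chosen with earlier results of these data known. The deposited values are a signal in normalized counts, made by dividing whole reads by a library-wide factor. In every column 100% of values were whole multiples of 1 step (tolerance 0.01 reads), and the factors ran from 0.947 to 1.07. The submitters' processing notes name FastQC 0.11.7, STAR 2.6, Cuffnorm and the build GRCz11. The table's name mentions HTSeq. Counting options, strand and the method of scaling are not given in the sources used here. No column was left without a sample.

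Symbols came from a table of gene names, which paired 25324 of the 27726 identifiers and gives some symbols in human style (TP63); list symbols were matched without regard to case. The RefSeq table is on another assembly and was used only for gene order and names. No sequences were used here.

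Genes with at least 10 normalized counts in at least 3 libraries were kept. log2(normalized count + 1) was compared between genotypes with limma 3.58.1 (eBayes with a mean-variance trend, R 4.3.3), without covariates, with Benjamini-Hochberg adjustment over 20463 genes. Such fold changes understate the change of low genes. No count test used wild-type replicate 3. The check applied took its step of 1.01 for rounding, although its values were whole multiples of that step, as in every column. edgeR 4.0.16 and DESeq2 1.42.0 were therefore run on recovered reads of the other 5 libraries, which leaves out a wild-type library with high krt4. Alternatives were the pseudocount, filter, scaling, variance trend, replicate block and leaving out each library, and also the depth class, which was not planned. Named genes are the 6 members, the 5 most alike by mean r, and in each list those past the threshold or, with none, the 3 with the smallest unadjusted p. Other genes were named after their values were seen. The fits were tested on simulated counts, whose spread was set by the mean level alone. That test does not cover genes that vary between libraries as much as krt4, krt5 and tp63 did. No group had 4 or more libraries, so single libraries were not tested as outliers.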

Additional observations from a re-analysis of the deposited data

How the results depend on the processing

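The count of the 6 genes with an adjusted p under 0.05 was 0 under all 18 alternatives. krt4 and krt5 were lower in mutants under all 18, with log2 fold changes from -1.50 to -0.50 and from -1.48 to -0.56. These alternatives reuse the same libraries, and none left out both wild-type replicates 2 and 3, where krt4 and krt5 were highest. Within the class with more reads, the difference in log2 values was 0.03 for krt4 and -0.35 for krt5. The signs of the other genes were not stable under the alternatives. krt8 turned from 0.0025 to -0.0070 with TMM scaling, -0.0427 with quantile normalization, -0.0547 with the depth class, -0.0522 with edgeR and -0.0489 with DESeq2, and ran from -0.1246 to 0.0685 when 1 library was dropped. cdh1 was -0.0022 with quantile normalization and ran from -0.1504 to 0.2471 over such fits. epcam was 0.10 with edgeR and with DESeq2, and ran from -0.5333 to 0.0501. tp63 ran from -0.7752 to 0.0671. The cause was not tested. Genes without overlap numbered from 0 to 2 over these fits (krt4 and krt5 without wild-type replicate 1, krt5 and epcam without mutant replicate 2), where fewer libraries overlap less often. The share of all tested genes without overlap was not computed for these fits, so these counts have no background. Pairs with an r of at least 0.8 numbered 4, and between 3 and 7 with 5 libraries.

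Deviations of same-numbered libraries from their genotype means had correlations of -0.202, -0.029 and -0.092, so equal numbers were not taken as pairs. A block for the replicate number gave, in limma, 0 genes of 20463 at an adjusted p under 0.05 (906 unadjusted) in place of 1. In that fit the unadjusted p was 0.028 for krt4 and 0.00393 for krt5 (adjusted p 1 and 0.818, log2 fold changes -0.91 and -1.03). The planned edgeR and DESeq2 fits of 6 libraries were not run. Depth limited these genes little, since the lowest value was 350.0 normalized counts.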
